A study of Mus musculus with 5 samples.

Results

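The genes described here are the proteins of the cytosolic ribosome, read in the RNA that tagged ribosomes carried out of the soleus myocytes of 5 mice. All array probe sets whose only gene symbol was of the form *Rpl* or *Rps* with a number, or was *Rplp0*, *Rplp1*, *Rplp2* or *Rpsa*, were taken, without the S6 kinase genes and without symbols of pseudogenes. The rule gave 68 genes of 19505, with 1 probe set each. Of these, 33 are core proteins of the large subunit, 22 are core proteins of the small subunit and 12 are paralogues or copies of a core gene. The symbol rule also took in *Rps19bp1*, which codes for a protein that binds RPS19 and is no part of the ribosome. Several ribosomal protein genes, among them *Rpl10*, *Rpl13a*, *Rplp2*, *Rps3* and *Rps27a*, were not analysed here because no probe set had their symbol in the annotation used.

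All 5 mice, numbered 1, 3, 11, 14 and 16, were HA-RiboTagMyo animals (Myogenin-Cre x RiboTag-Rpl22fl/fl-HA), were sedentary, and formed a single group that the design text calls wild-type control. Per the methods, mice were males of 12 to 16 weeks and were harvested after a fast of 5 h unless otherwise stated, and the Myogenin-Cre line was backcrossed to the strain written there as C57BL6/6 J. Cre came from the *Myogenin* gene, so the tag was made in cells that are or once were myogenin-positive. Left soleus muscles were homogenized, ribosomes were pulled down with anti-HA antibody, and each eluate was read on 1 mouse Clariom S array, with no input RNA, untagged tissue or second condition among the arrays used here.

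Each ribosome has a large and a small subunit, and each subunit holds a fixed set of proteins around its ribosomal RNA, so that cells make most of these proteins in equal numbers. Their mRNAs usually start with a cytosine and a run of pyrimidines, the 5′ TOP motif, through which mTORC1 signaling sets their translation. RPL22 is the protein that carries the tag in RiboTag mice: Cre removes the native last exon of *Rpl22* and brings in a copy with the HA epitope. A few core proteins have paralogues with narrower use. RPL3L takes the place of RPL3 in the ribosomes of adult striated muscle, and RPL22L1 is a paralogue of RPL22 whose level RPL22 is known to hold down.

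Promoter sequences show what part of the genes shares a start or motif at the DNA level, with *Rpl22*, *Rpl22l1* and *Rpl3l* among them. The RefSeq table of promoters (build GRCm38.p6) matched 55 of the 68 genes, and each window held 250 bases before an annotated start and 50 after it, with any of a gene's starts counted. A cytosine at the annotated start followed by at least 4 pyrimidines was found in 13 of the 55 (23.6%), against 3.01% of 27025 genes in the table, 2.82% of 6889 matched genes called above background in these arrays, and 0 of 67 mitochondrial ribosomal protein genes. The motif CTTCCG, searched on both strands, was in 33 of the 55 (60.0%), against 18.8% of all genes, 37.3% of called genes and 38 of 67 mitochondrial ribosomal protein genes. CTCGCGAG was in 4 (7.27%), against 1.04% of all genes, 2.45% of called genes and 2 of 67 mitochondrial ribosomal protein genes. AAGATGG was in 8 (14.5%), against 7.28% of all genes, 9.25% of called genes and 13 of 67 mitochondrial ribosomal protein genes. The 13 genes with a tract at the start were *Rpl14*, *Rpl15*, *Rpl28*, *Rpl32l*, *Rpl35*, *Rpl35a*, *Rpl38*, *Rps10*, *Rps15a*, *Rps18*, *Rps21*, *Rps27rt* and *Rps6*. With the start allowed to lie anywhere within 10 bases, 33 of 55 (60.0%) held a tract, *Rpl22*, *Rpl22l1* and *Rpl3l* among them, against 34.4% of all genes, 37.4% of called genes and 31 of 67 mitochondrial ribosomal protein genes. The windows below run from 60 bases before the start through the first 20 transcribed bases, 5′ to 3′ on the gene's strand, with the tract and any of the 3 motifs in capitals. The first 3 genes have a tract at the start, and the other 3, like most of the 55, do not. *Rps6* lies at chr4:86857348-86857427 (minus strand), *Rpl35* at chr2:39005112-39005191 (minus strand), *Rpl14* at chr9:120571457-120571536 (plus strand), *Rpl22* at chr4:152325666-152325745 (plus strand), *Rpl22l1* at chr3:28805448-28805527 (plus strand) and *Rpl3l* at chr17:24727766-24727845 (plus strand).
Rps6: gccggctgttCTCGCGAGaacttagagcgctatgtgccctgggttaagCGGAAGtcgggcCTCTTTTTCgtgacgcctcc
Rpl35: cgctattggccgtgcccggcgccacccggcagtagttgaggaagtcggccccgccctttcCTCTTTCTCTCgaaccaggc
Rpl14: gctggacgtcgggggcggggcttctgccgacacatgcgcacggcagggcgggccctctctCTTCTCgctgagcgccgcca
Rpl22: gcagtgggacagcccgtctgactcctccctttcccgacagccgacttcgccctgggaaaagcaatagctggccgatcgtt
Rpl22l1: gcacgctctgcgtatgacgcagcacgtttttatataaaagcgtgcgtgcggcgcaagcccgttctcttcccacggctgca
Rpl3l: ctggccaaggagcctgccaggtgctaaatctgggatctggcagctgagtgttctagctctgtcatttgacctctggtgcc

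In these sequences, *Rps6* held a tract of 9 pyrimidines, CTCGCGAG and the reverse complement of CTTCCG, *Rpl35* a tract of 11 and *Rpl14* a tract of 6. *Rpl22l1* had no tract at its start in these annotations, nor did *Rpl22* or *Rpl3l* at either of the 2 starts annotated for each, of which the downstream start of *Rpl22* and the upstream start of *Rpl3l* are shown. In the full windows *Rpl22* held AAGATGG, whereas *Rpl22l1* and *Rpl3l* held none of the 3 motifs. A match is a description of letters only, and annotated starts can lie some bases from the start used in muscle.

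The signals are log2 values as the authors deposited them, and they do not rank mRNAs by abundance, because probe sets bind their targets with different strength. Over all probe sets the array medians lay between 5.11 and 5.20 and pairs of arrays correlated at r of 0.976 to 0.986 over these probe sets, which are not replicates. The cutoff for background was each array's 95th percentile of 1091 odorant receptor genes (5.25 to 5.32), and genes over it in a limma fit across all genes, at a Benjamini-Hochberg adjusted p under 0.05, are named as called. All 12 myofiber marker genes were called. Among markers of other cells, *Pax7* (satellite cells), *Ptprc* (leukocytes), *Sox10* (Schwann cells) and *Adipoq* (adipocytes) were not called. *Adipoq* still lay over the cutoff in mice 1 (5.75) and 16 (6.14). Markers of other cells that were called included *Pecam1* (5.95) and *Cdh5* (7.15) of endothelium and *Dcn* (9.35) of fibroblasts. *Acta2* (8.48) of smooth muscle and *Sdc4* (11.93) of the satellite cell list were also called. Called markers of other lists numbered 4 of 7 for endothelium, 6 of 7 for fibroblasts, 5 of 6 for smooth muscle, 1 of 6 for satellite cells, 1 of 3 for Schwann cells (*Mbp*, 7.22), 1 of 4 for adipocytes (*Cidec*, 7.08) and 1 of 2 for erythroid cells, and of 6 immune genes, with means of 3.71 to 5.59, 5 lay over the cutoff in no mouse. The Y-linked gene *Eif2s3y* had signals of 3.54 in mouse 1 and 3.53 in mouse 16, against 10.42, 11.92 and 12.73 in mice 3, 11 and 14. These 2 arrays go against the male sex that the methods give, and so the calls, the places of the genes of special interest, the order of the mice, the courses and the spreads are also given for mice 3, 11 and 14 alone.

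Nearly all cytosolic ribosomal protein genes were read well above background in every mouse. Of the 68 genes, 65 were called, against 43.5% of all 19505 genes, and the same 65 lay over the cutoff in each of the 5 mice and in mice 3, 11 and 14 alone. They comprised all 55 core genes, 9 of the 12 paralogues and *Rps19bp1*. The median of the mean signals was 11.78 over the 68 genes, which is above 92.5% of all genes, against 5.16 over all genes. Core genes of the large subunit had a median of 12.55, core genes of the small subunit 11.42 and paralogues 8.47, against 10.72 for 76 mitochondrial ribosomal protein genes, of which 75 were called. Arrays near their ceiling compress differences, but none of the 68 genes came within 1 log2 unit of the array maximum (19.90 to 19.93) in any mouse, and 224 genes had a mean above the highest of them.

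**Figure D1:**
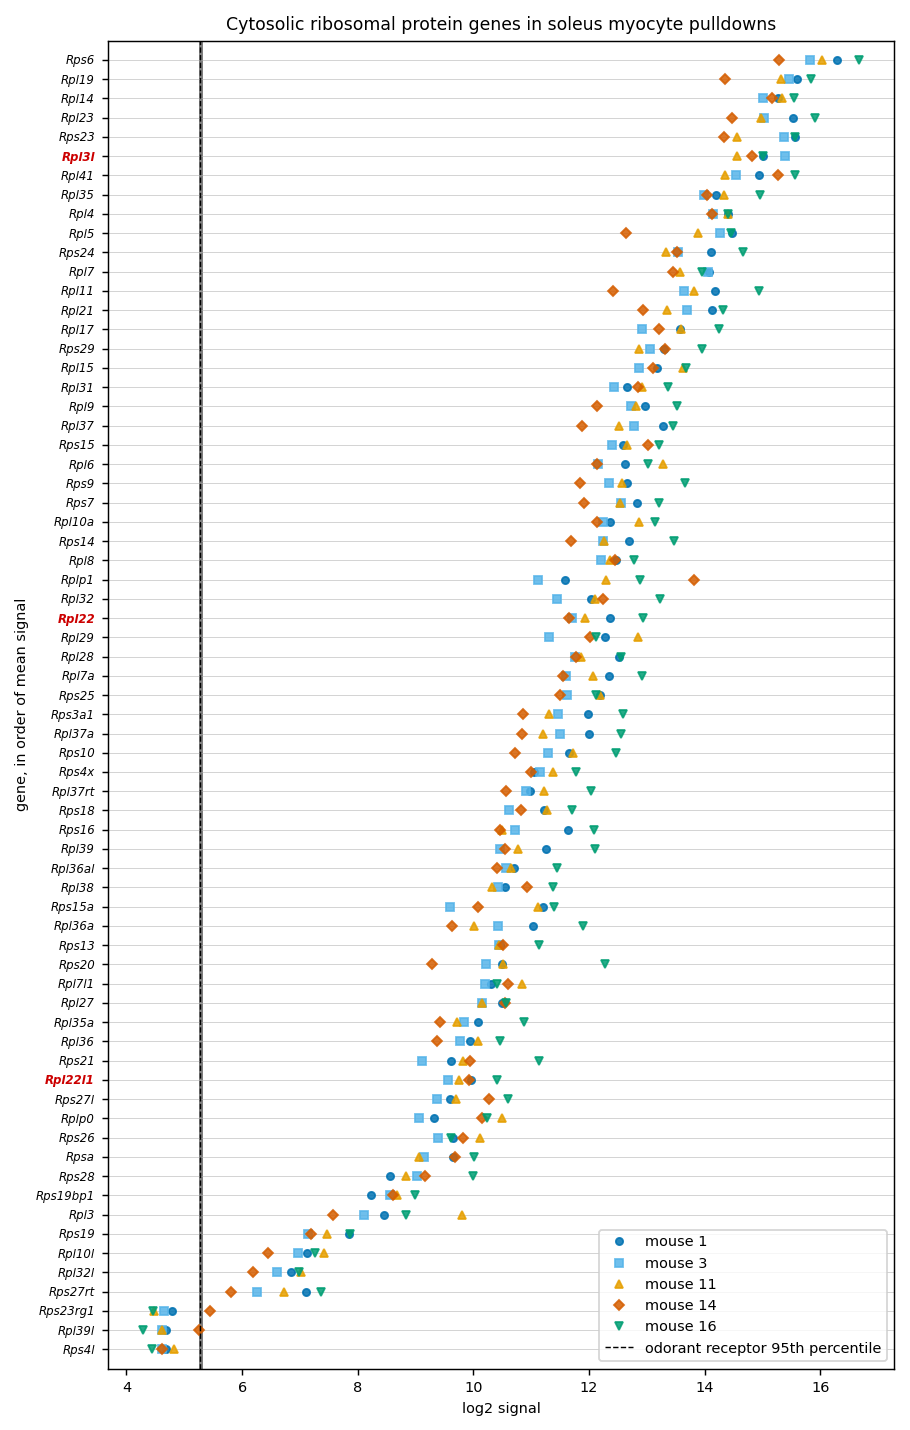
Log2 signal (x axis) of each of the 68 genes (y axis, ordered by mean) in the 5 mice. The dashed line is the mean of the arrays' odorant receptor 95th percentiles, and the shaded band is their range. All but *Rps23rg1*, *Rpl39l* and *Rps4l* sit right of the band in every mouse. *Rpl22* holds place 30, *Rpl22l1* place 54 and *Rpl3l* place 6 (red labels), and the points of mouse 16 are often the rightmost of their row.

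The highest signals belonged to proteins of both subunits. *Rps6*, whose protein is the classical substrate of the S6 kinases, had signals of 16.29, 15.83, 16.03, 15.28 and 16.66 in mice 1, 3, 11, 14 and 16 (16.02 ± 0.52, SD, n = 5). *Rpl19* followed with 15.60, 15.46, 15.32, 14.34 and 15.84 in the same mice (15.31 ± 0.57). In both genes mouse 14 was lowest and mouse 16 highest. *Rpl14* averaged 15.26 ± 0.20, *Rpl23* 15.18 ± 0.55 and *Rps23*, part of the decoding center, 15.07 ± 0.58. *Rpl19* read above *Rps23* in each of the 5 mice, though by different probe sets.

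*Rpl22*, the tagged gene, lay in the middle of its own family. Its signals were 12.36, 11.71, 11.94, 11.65 and 12.93 in mice 1, 3, 11, 14 and 16 (12.12 ± 0.53), with 29 of the other genes above it and 38 below. Its place was 30 of 68 by the mean, between 28 and 33 in the single mice and 33 in mice 3, 11 and 14 alone. Its signal was above that of 93.6% of all genes and 6.84 (SE 0.19) log2 units above the cutoff (limma, adjusted p = 1.05e-11). The neighbors *Rpl32* (12.21), *Rpl29* (12.11), *Rpl28* (12.09) and *Rpl7a* (12.09) differed from it by less than its SD. Probe positions were not used here, so transcripts with the tagged last exon and transcripts with the native last exon were read together.

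*Rpl22l1* lay lower than its partner on the arrays. It had signals of 9.96, 9.55, 9.75, 9.92 and 10.40 in mice 1, 3, 11, 14 and 16 (9.92 ± 0.32), which put it at place 54, between 52 and 56 in the single mice and 54 in mice 3, 11 and 14 alone. It was 4.64 (SE 0.15) log2 units above the cutoff (limma, adjusted p = 4.84e-11). *Rpl22l1* and *Rpl22* were on the same side of their own means in 4 of 5 mice, the exception being mouse 14, where *Rpl22l1* was at its mean (0.00) and *Rpl22* was 0.47 below its own. The difference of the paralogue minus *Rpl22* was -2.39, -2.16, -2.19, -1.73 and -2.53, a range of 0.80 over the mice.

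*Rpl3l* was the exception among the paralogues, with a signal beside the highest core genes. It read 15.00, 15.38, 14.56, 14.81 and 15.01 in mice 1, 3, 11, 14 and 16 (14.95 ± 0.30), place 6 of 68 by the mean, between 3 and 7 in the single mice and 4 in mice 3, 11 and 14 alone. *Rpl3*, the gene it replaces in adult muscle, read 8.45, 8.11, 9.80, 7.57 and 8.84 (8.55 ± 0.84), place 61. *Rpl3l* read above *Rpl3* in each of the 5 mice, though by different probe sets. The difference of *Rpl3l* minus *Rpl3* was 6.55, 7.27, 4.76, 7.25 and 6.17. It compares different probe sets, so its size depends on their binding strength, and its change across mice may not be free of it either. That change covered 2.52 log2 units, and it followed *Rpl3*, which was highest in mouse 11, where *Rpl3l* was lowest. *Rpl3l* and *Rpl3* were on the same side of their own means in 2 of 5 mice.

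**Figure D2:**
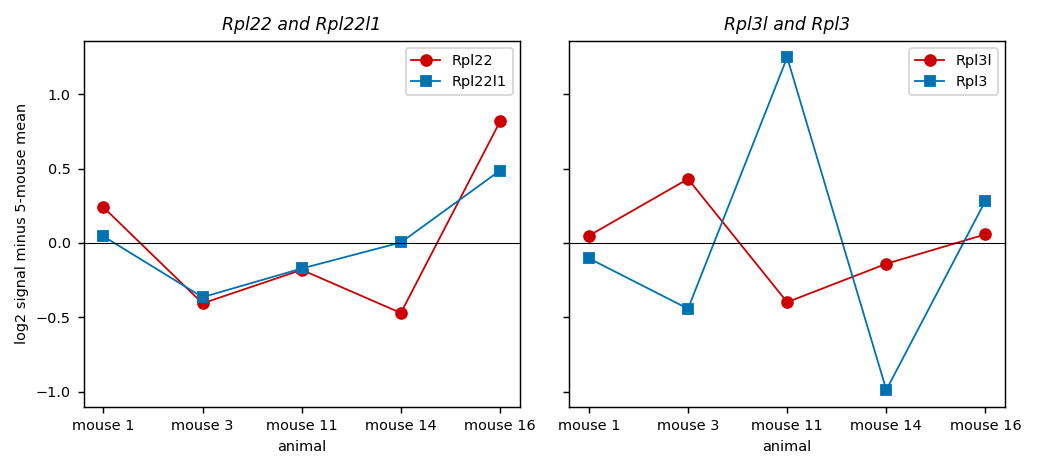
Log2 signal minus the gene's 5-mouse mean (y axis) in each mouse (x axis) for *Rpl22* with *Rpl22l1* (left) and *Rpl3l* with *Rpl3* (right), 1 point per array. *Rpl22* and *Rpl22l1* are both highest in mouse 16, while *Rpl3* peaks at 1.25 in mouse 11, where *Rpl3l* is at its lowest, -0.40.

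The other paralogues fell into readable and background-level genes. *Rpl37rt* (11.14 ± 0.55), *Rpl36al* (10.75 ± 0.41), *Rpl7l1* (10.47 ± 0.26), whose protein takes part in the maturation of the large subunit, and *Rps27l* (9.90 ± 0.51), known as a p53 target, were all called. *Rpl10l* (7.04 ± 0.37), best known from the testis, *Rpl32l* (6.73 ± 0.35) and *Rps27rt* (6.65 ± 0.63) were called with the lowest signals, 1.37 to 1.76 log2 units over the cutoff. Copies close to a core gene can share probes with it or with processed pseudogenes, so signals of such pairs cannot be assigned to 1 gene with certainty. *Rpl36al* and *Rpl36a* illustrate how such pairs read. *Rpl36a* had signals of 11.04, 10.43, 10.01, 9.64 and 11.89 in mice 1, 3, 11, 14 and 16, while *Rpl36al* stayed between 10.40 and 10.70 in mice 1, 3, 11 and 14 and read 11.45 in mouse 16.

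Only 3 of the 68 genes, all of them copies, were not called. *Rpl39l*, a paralogue best known from male germ cells, read 4.69, 4.61, 4.61, 5.26 and 4.29 in mice 1, 3, 11, 14 and 16, under the cutoff in each (difference -0.58, SE 0.16, limma adjusted p = 0.00432). *Rps23rg1*, a retroposed copy of *Rps23*, read 4.78, 4.65, 4.47, 5.45 and 4.46 and was over the cutoff in mouse 14 only (difference -0.52, adjusted p = 0.0122). *Rps4l*, which RefSeq annotates as a transcribed pseudogene, read between 4.44 and 4.83 (difference -0.64, adjusted p = 0.000722). Over mice 3, 11 and 14 the differences of *Rpl39l* (-0.45) and *Rps23rg1* (-0.42) did not pass the test (adjusted p = 0.0720 and 0.124).

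Among core genes with low signals were several with well-known roles. *Rplp0*, the base of the stalk that recruits elongation factors and a common reference gene in PCR, read 9.32, 9.06, 10.50, 10.15 and 10.24 in mice 1, 3, 11, 14 and 16 (9.85 ± 0.63). *Rpsa*, also known as the laminin receptor, averaged 9.51 ± 0.40. *Rps19*, mutated in human Diamond-Blackfan anemia, had the lowest signal of the core genes at 7.50 ± 0.35, still 2.22 (SE 0.16) log2 units over the cutoff (limma, adjusted p = 7.15e-08). These are probe set readings, and a low signal does not show that fewer copies of a protein were in the ribosomes.

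The core genes moved together between mice, with mouse 16 high and mouse 14 low. Of the 68 genes, 50 were highest in mouse 16, as were 21.3% of all genes, and 34 were lowest in mouse 14, as were 21.9% of all genes. Both held for 25 of the 68, against 6.18% of all genes. Among the 55 core genes, 44 were highest in mouse 16, and 53 had a higher signal in mouse 16 than in mouse 14, with a median difference of 1.05 log2 units, or 2.06-fold, and a range of -0.93 to 2.99. Over all genes the median of that difference was -0.01. The median difference of the core genes from their own 5-mouse means was 0.11, -0.29, -0.06, -0.41 and 0.62 in mice 1, 3, 11, 14 and 16. Large and small subunit genes gave nearly the same medians, 0.59 and 0.65 in mouse 16 and -0.41 and -0.37 in mouse 14. All genes had medians within 0.02 of 0 in each mouse. A single group with 1 array a mouse allows no test of a mouse against another, and the genes of an array share its RNA, its labeling and its scaling, so they are not replicates of that shift.

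**Figure D3:**
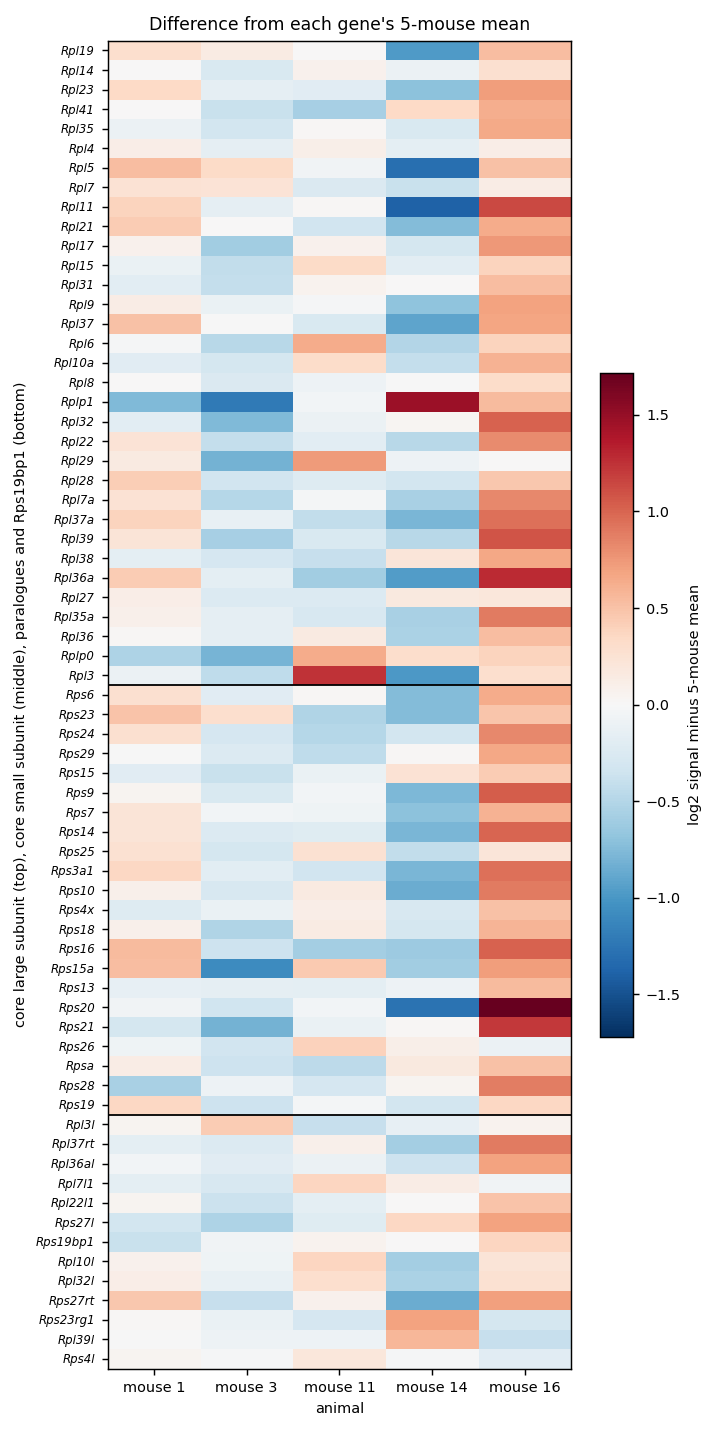
Log2 signal minus the gene's 5-mouse mean (color) for each gene (rows: core large subunit, core small subunit, then paralogues and *Rps19bp1*) in each mouse (columns). The column of mouse 16 is red in most rows of both subunits (63 of 68 genes above their mean), and the column of mouse 14 is blue in most (49 below it), with *Rplp1* the clearest exception in mouse 14.

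In neighboring gene groups the medians of mice 16 and 14 lay closer to each other than in the core genes. The 12 paralogues had medians of 0.24 in mouse 16 and -0.08 in mouse 14. These medians include the 3 copies that were not called. *Rpl39l*, *Rps23rg1* and *Rps4l* lay at -0.40, -0.30 and -0.19 in mouse 16, and at 0.57, 0.68 and -0.02 in mouse 14. The 9 called paralogues ran from -0.06 (*Rpl7l1*) to 0.89 (*Rpl37rt*) in mouse 16. In mouse 14 they ran from -0.85 (*Rps27rt*) to 0.36 (*Rps27l*). The medians of all 12 are thus not those of the readable paralogues alone. The 76 mitochondrial ribosomal protein genes had 0.11 in mouse 16 and 0.06 in mouse 14. The 25 genes of an assembly factor list, which also holds RNA polymerase I genes such as *Polr1a*, had 0.01 and -0.08. The 7 elongation factor genes measured had 0.16 and 0.14, but they were split, with 3 highest in mouse 14 and 3 in mouse 16. *Eef2*, which moves the ribosome along the mRNA, was highest in mouse 14 (15.71, 15.39, 16.05, 16.80 and 15.99 in mice 1, 3, 11, 14 and 16). *Eef1a1* was lowest in mouse 14 (11.20) and highest in mouse 16 (12.54), like many core genes. The 14 measured genes of a list of other 5′ TOP mRNAs, 5 of them also in the elongation list, had 0.17 and -0.19, and in that list *Tpt1*, a TOP mRNA that codes for a tumor protein with roles in growth, ran with the core genes at 16.38, 15.74, 15.95, 15.43 and 16.88. In 7 of these 14 genes mice 1 and 16 both lay above the other mice, a share like that of the core genes (26 of 55). The pattern was seen in 2 of the 7 elongation factor genes and in 11.1% of all genes. *Fau*, a fusion gene whose product gives rise to the small subunit protein RPS30, averaged 10.32 ± 0.24 and was lowest in mouse 14 (9.90) but highest in mouse 1 (10.53). Of 5302 called genes within the signal range of the core genes, the medians were 0.01 in mouse 16 and 0.01 in mouse 14. Over mice 3, 11 and 14, with differences taken from their own mean, the core genes had medians of -0.05, 0.18 and -0.12, against 0.01, 0.02 and -0.01 for mitochondrial ribosomal protein genes, -0.05, 0.13 and -0.08 for assembly factors, -0.01, 0.10 and -0.06 for the TOP list and -0.15, 0.08 and 0.18 for elongation factors. In these 3 mice the core genes and the assembly factors thus had nearly the same course. Whether the groups differ beyond chance was not tested.

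**Figure D4:**
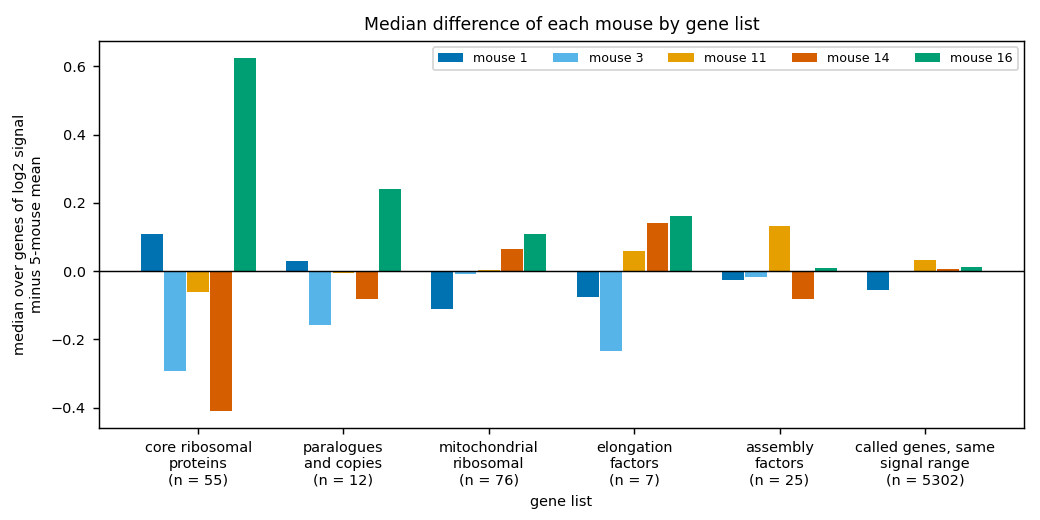
Median over genes of the log2 signal minus the gene's 5-mouse mean (y axis) for 6 gene lists (x axis, n genes below each), with 1 bar per mouse. Core ribosomal protein genes run from -0.41 in mouse 14 to 0.62 in mouse 16, while the 5302 called genes of the same signal range stay within 0.06 of 0. The bars of the paralogues include *Rpl39l*, *Rps23rg1* and *Rps4l*, which were not called.

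Values that moved with the pattern, or did not, stand as follows. Array medians were 5.15 in both mouse 16 and mouse 14. Marker lists of other cells had medians in mice 16 and 14 of 0.02 and 0.35 for endothelium, 0.29 and -0.10 for fibroblasts, -0.08 and -0.07 for immune cells, -0.36 and 0.04 for smooth muscle, 0.06 and 0.18 for satellite cells, 0.38 and -0.13 for adipocytes, 0.32 and 0.22 for Schwann cells and 0.01 and -0.32 for erythroid cells. The adipocyte, fibroblast and erythroid lists thus had the signs of the core genes in mice 16 and 14. *Adipoq*, at 5.75, 5.25, 4.98, 4.85 and 6.14 in mice 1, 3, 11, 14 and 16, was highest in mouse 16 and lowest in mouse 14. *Plin1*, not called, was also highest in mouse 16, but lowest in mouse 3. *Cidec*, the only called gene of the adipocyte list, was lowest in mouse 14 but highest in mouse 1 (7.57), with 7.10 in mouse 16. *Lep*, not called, was highest in mouse 1 and lowest in mouse 11. Mice 1 and 16, those with low Y-linked signals, both lay above mice 3, 11 and 14 in 29 of the 68 genes, as they did in 11.1% of all genes, and in 26 of 55 core genes. In mice 3, 11 and 14 alone, 35 of 68 genes were lowest in mouse 14, against 32.9% of all genes, and 37 were highest in mouse 11, against 31.0%. Without mouse 14, mouse 3 was lowest in 41 of 68 genes, and without mouse 16, mouse 1 was highest in 30, against 23.7% and 24.9% of all genes. The part of sex, of other cells or of the pulldown in the pattern was not tested, and in bulk RNA fewer cells of a type and less RNA per cell cannot be told apart.

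*Rpl22* followed the common course closely. Its differences from its mean were 0.24, -0.41, -0.18, -0.47 and 0.82 in mice 1, 3, 11, 14 and 16, and by root mean square distance from the median course of the core genes over the 5 mice (0.131 log2 units) its place was 3 of 68, after *Rpl36al* (0.0956) and *Rpl35* (0.125). *Rpl22* is itself 1 of the 55 genes behind that median. The genes whose course was most like that of *Rpl22*, picked by the same distance, were *Rpl7a* (0.0855), *Rpl39* (0.144) and *Rpl35a* (0.147). *Rpl7a* read 12.34, 11.60, 12.06, 11.54 and 12.91 in mice 1, 3, 11, 14 and 16, beside the values of *Rpl22* given above. *Rplp1* (1.02) and *Rpl3* (0.667) were the farthest. Over mice 3, 11 and 14 *Rpl22* was nearest of all (0.0053), but the common course is then so flat that *Rps4l*, at background, held place 3 (0.0359), while *Rplp1* (1.15) and *Rpl3* (0.823) were again the farthest.

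The spread between mice was wider for core genes than for genes of like signal over the 5 mice, and not over mice 3, 11 and 14. The median SD was 0.500 over the 68 genes, 0.534 over the core genes and 0.360 over the paralogues, against 0.303 over mitochondrial ribosomal protein genes, 0.363 over called genes in the signal range of the core genes and 0.350 over all genes. Of the 55 core genes, 42 lay above the median of called genes in their range. The median SD of the 68 genes was 0.356 without mouse 16 and 0.345 over mice 3, 11 and 14, against 0.438 to 0.561 with any other mouse left out. Over mice 3, 11 and 14 the core genes had a median SD of 0.337, against 0.336 for called genes in their signal range. Of the 5 mice, leaving out mouse 16 lowered the median SD of the 68 genes most. The spread of called genes in the same signal range was not computed without mouse 16 alone. Without mouse 1 the median SD of the 68 genes rose to 0.561.

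The 5 genes with the widest spread did not all follow the same course. *Rps20* had the largest SD, with 10.49, 10.21, 10.51, 9.28 and 12.27 in mice 1, 3, 11, 14 and 16 (10.55 ± 1.08). *Rpl11* read 14.17, 13.64, 13.81, 12.40 and 14.93 (13.79 ± 0.92), and *Rpl36a* had an SD of 0.89. These 3 had mouse 14 lowest and mouse 16 highest, as did *Rpl22*. *Rpl5*, which joins RPL11 and the 5S RNA in a particle that can bind MDM2, was also lowest in mouse 14, at 12.64, against 13.88 to 14.48 in the other mice. *Rplp1*, a protein of the stalk, ran the other way with 11.58, 11.12, 12.30, 13.81 and 12.89 (12.34 ± 1.07) and was the only core gene highest in mouse 14. *Rpl3* (SD 0.84) was highest in mouse 11.

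At the narrow end stood *Rps4l*, at background, and 4 large subunit genes. *Rpl4* read 14.41, 14.14, 14.39, 14.13 and 14.41 in mice 1, 3, 11, 14 and 16 (14.29 ± 0.15). *Rpl14* read 15.27, 15.00, 15.34, 15.17 and 15.53 (15.26 ± 0.20), *Rpl8* 12.47, 12.21, 12.37, 12.45 and 12.78 (12.46 ± 0.21) and *Rpl27* 10.49, 10.15, 10.15, 10.55 and 10.57 (10.38 ± 0.22). Their means ran between 10.38 and 15.26, and none of them was near the array ceiling. Mouse 16 was highest in *Rpl14*, *Rpl8* and *Rpl27*. In *Rpl4* mice 1, 11 and 16 lay close together (14.41, 14.39 and 14.41), so mouse 16 did not stand out there.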

How the data were processed

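RNA from anti-HA pulldowns of the left soleus of 5 mice was read on 1 Clariom S array per mouse. Per the methods and labels, the authors processed the intensities with Transcriptome Analysis Console 4.0 in its default configuration and deposited log2 signals per probe set. How probes were summarized, and on which genome build, is not given in the sources used here. Of 22206 probe sets, 19572 had 1 gene symbol and 2634 none, and the signals of 55 genes with several probe sets were averaged. The signals were not scaled again. Signals minus each array's 95th percentile of 1091 odorant receptor genes were fitted per gene with R 4.3.3 and limma 3.58.1 (eBayes, two-sided, Benjamini-Hochberg over 19505 genes). Calls were made for 9 of those odorant genes, 5 of 319 vomeronasal receptors and 6 of 89 genes of keratin-associated proteins or beta-defensins. The fit was tested on simulated data. Levels, places and spreads between mice are descriptions with no test, and p-values cover the spread between 5 mice. The number of arrays limits the precision.

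The genes and gene lists were chosen with earlier results of these data known. Genes named are *Rpl22* and paralogues with their partners, the 5 highest, 5 lowest, 5 most and 5 least variable of the 68, those not called, those where Dixon's ratio set a mouse apart, and a fixed list of core genes and factors. *Rpl7a*, *Rpl39*, *Rpl35a*, *Rpl28*, *Rpl29* and *Rpl32* were named after their values were seen. Motif searches used the RefSeq promoter table. Protein identity between paralogues was not analysed. Alternatives were the 50th and 99th percentiles, background from vomeronasal receptors, or from keratin-associated proteins with beta-defensins, renewed quantile normalization, a trended and robust prior, a filter on low values, the highest probe set, each mouse left out, and mice 3, 11 and 14 only. Python 3.11.15 was used with numpy 2.4.6, pandas 2.3.3 and scipy 1.17.1.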

Additional observations from a re-analysis of the deposited data

Results flagged for a closer look

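In 2 of the 68 genes, the array of mouse 16 stood apart from the others by Dixon's ratio, the gap to the nearest mouse over the whole range. *Rps13* read 11.14 in mouse 16, against 10.44 to 10.51 in the others, a ratio of 0.892. *Rpl36al* read 11.45 in mouse 16, against 10.40 to 10.70 in the others, a ratio of 0.713, just above the critical value of 0.71 for 5 samples. Chance alone places about 1 in 20 genes beyond that value, or 3.4 of 68, so 2 is no more than chance gives.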

How the results depend on the processing

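The cutoff decided whether the lowest copies were called. When odorant receptor genes gave the cutoff by their 50th percentile, 12814 of all genes and all 68 ribosomal protein genes were called, and *Rpl39l* (0.66), *Rps23rg1* (0.73) and *Rps4l* (0.61) lay above it on the log2 scale. Under the other alternatives the same 65 genes were called, with 7434 to 8487 calls over all genes. The median SD of the 68 genes was 0.356 to 0.561 with each mouse left out, the lowest without mouse 16, and 0.345 over mice 3, 11 and 14, where core genes (0.337) were close to called genes in their signal range (0.336). Places by mean with each mouse left out ran from 28 to 32 for *Rpl22*, 51 to 56 for *Rpl22l1* and 6 to 7 for *Rpl3l*. Over mice 3, 11 and 14, *Rpl22* was at place 33 and *Rpl3l* at place 4. Genes highest in mouse 16 numbered 49 after quantile normalization, and 51 to 55 with another mouse left out. Genes lowest in mouse 14 numbered 33 after quantile normalization and 34 to 44 with another mouse left out. By Dixon's ratio, 1 gene stood apart after quantile normalization, and with a tract allowed within 10 bases of the start 33 promoters in place of 13 held it. Alternatives for places, for lists and courses over 3 mice, for counts by mouse, for Dixon's ratio and for the tract were chosen after seeing the data. The cause of these moves was not tested. No paired analysis was possible because there is a single group.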
